A study of Mus musculus with 6 samples.

Results

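The genes described here encode 10 factors through which astrocytes act on synapses: the thrombospondins Thbs1, Thbs2 and Thbs4, the matricellular proteins Sparcl1 (hevin) and Sparc, the glypicans Gpc4 and Gpc6, the bone morphogenetic protein (BMP) antagonist Chrdl1, and the engulfment receptors Megf10 and Mertk. They were chosen by name, as a list of known astrocyte factors, and are 10 of the 22086 genes in the count tables. All 10 were abundant enough to be tested among 13545 genes.

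The study asked which messenger RNAs bound to astrocyte polyribosomes depend on Connexin 43 (Cx43, encoded by Gja1), a gap junction protein of astrocytes. Translating ribosome affinity purification (TRAP) was used: an eGFP-tagged ribosomal protein L10a is produced under the Aldh1l1 promoter, which is active in astrocytes, and tagged polyribosomes are captured on antibody-coated beads with the messages they carry. RNA from hippocampi of mice aged 6 weeks was amplified and sequenced from 3 libraries per genotype. Cx43FL libraries came from mice with the Aldh1L1-RPL10aGFP transgene and floxed Cx43 alleles (Cx43 fl/fl) without Cre, and Cx43KO libraries came from mice with the same transgene and floxed alleles plus Gfap Cre. Both groups therefore carry the tag and the floxed alleles, and differ in the labels only by the Cre transgene, which is driven by a GFAP promoter and so acts in the cells where that promoter is or has been active. The labels do not say whether each library came from its own animals, so the p-values measure the spread between libraries.

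Astrocytes release proteins that start, strengthen and mature synapses, and they also remove synapses by phagocytosis. Thrombospondins act on neurons through the calcium channel subunit encoded by Cacna2d1, hevin bridges adhesion proteins across the synaptic cleft, and SPARC opposes hevin. Glypicans recruit AMPA receptors to young synapses, Chrdl1 is known to promote the change to AMPA receptors that contain GluA2, and Megf10 and Mertk recognise material to be engulfed.

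Gene counts summed to between 14787303 and 15391214 in the Cx43FL libraries and to between 16056347 and 34733473 in the Cx43KO libraries. Values are given as counts per 1000000 counts (CPM) of the library after TMM normalisation, and 3 counts correspond to 0.0864 to 0.203 CPM before that normalisation. These limits cover counting error only, because amplified reads are not independent molecules. Cx43KO replicate 1 stood apart on the first principal component, at 123 against -50.7 to -0.42 for the other libraries, a component with 41.0% of the variance. All 10 astrocyte markers were counted in every library, and their summed level was 28279, 27545 and 31207 CPM in Cx43FL and 13521, 26275 and 37714 CPM in Cx43KO. Their median log2 fold change was -0.26, and 2 of the 10 were below in every Cx43KO library, beside 7.45% of all tested genes. Choroid plexus markers were above in every Cx43KO library for 5 of 5 genes, beside 8.08% of all tested genes. Their sums were 22002 to 32765 CPM in the Cx43KO libraries and 457 to 15276 CPM in the Cx43FL libraries. In Cx43KO replicate 1, oligodendrocyte markers summed to 2594 CPM against 580 to 975 in the other libraries, and the sums of oligodendrocyte precursor, endothelial, mural and fibroblast markers were below 100 CPM in every library. Tek had no counts in 5 libraries, Tie1 in 3 and Kcnj8 in all 6. Gja1, the targeted gene, had 91.9, 91.7 and 82.3 CPM in Cx43FL and 87.2, 98.4 and 95.1 CPM in Cx43KO (log2 fold change 0.08, SE 0.28, edgeR adjusted p = 0.949). Since reads were counted over whole transcripts, it cannot be told whether the deleted part was covered. The labels name no batch, but the deposited tables carry serial numbers from a separate range for each genotype, and whatever those numbers stand for cannot be told apart from the genotype. In bulk samples such as these, fewer cells of a type and less RNA per cell cannot be told apart either.

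The counts were made per transcript, and for 3 members coding stretches in which annotated forms differ are given here. Reads shared between forms limit what the counts can say of each. The stretches that set these forms apart are shown 5′ to 3′ from GRCm38, with capitals marking bases that one form has and the other lacks or replaces. For Chrdl1 only the first 30 of the bases that differ are shown, of 42 in Chrdl1-202 and 384 in Chrdl1-203. For Sparc the forms differ by a single codon at coding position 61 (chr11:55407259-55409939, minus strand, a span that includes an intron).
Sparc-201: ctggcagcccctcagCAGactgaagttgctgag
Sparc-202: ctggcagcccctcagactgaagttgctgag
For Chrdl1 the forms share their first 955 coding bases and then end differently, Chrdl1-202 after 999 coding bases (chrX:143299839-143299883) and Chrdl1-203 after 1341 (chrX:143294312-143299883, minus strand).
Chrdl1-202: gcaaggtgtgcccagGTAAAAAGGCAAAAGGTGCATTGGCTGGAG
Chrdl1-203: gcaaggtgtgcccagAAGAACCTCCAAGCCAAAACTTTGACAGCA
For Gpc6 one form holds 30 additional bases after coding position 1152 (chr14:117888651-117951152, plus strand).
Gpc6-202: agcttggaccggctggtcacagacataaaa
Gpc6-204: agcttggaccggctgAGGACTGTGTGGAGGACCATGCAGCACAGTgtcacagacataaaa

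To compare levels between genes, the CPM of each gene was divided by the length in kilobases (kb) of its most counted transcript. In Cx43FL libraries hevin and SPARC were far above the other factors. Sparcl1 had 464 ± 73.9 CPM per kb (SD, n = 3), at percentile 99.3 of all tested genes, and Sparc had 302 ± 58.1, at percentile 98.5. Sparcl1 was 1.54 times Sparc, and Sparc was 14.1 times the next member, Gpc6.

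The middle of the order held the glypicans, both engulfment receptors, Thbs4 and Chrdl1. Gpc6 had 21.4 ± 7.41 CPM per kb, Mertk 16.0 ± 6.61, Thbs4 8.67 ± 1.29, Megf10 6.26 ± 1.07, Gpc4 4.75 ± 2.51 and Chrdl1 2.80 ± 0.800 (SD, n = 3 each). These stood between percentile 74.3 for Gpc6 and percentile 28.0 for Chrdl1. Thbs2 and Thbs1 closed the order with 0.111 ± 0.163 and 0.0784 ± 0.0581 CPM per kb, at percentiles 0.746 and 0.384, and the first and last members differed 5920-fold.

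The library ranges of neighbours in this order overlapped for Gpc6 with Mertk, Megf10 with Gpc4, Gpc4 with Chrdl1, and Thbs2 with Thbs1. The other neighbours were separated in every Cx43FL library. The place of Gpc6 depended on its transcript length: with the 3488 bases of Gpc6-202 in place of the 1668 bases of Gpc6-201 its level was 10.2 ± 3.55 CPM per kb, which put it after Mertk. In Cx43KO the means per kb were 538 for Sparcl1, 472 for Sparc, 28.3 for Gpc6, 13.6 for Mertk, 12.7 for Gpc4, 7.88 for Thbs4, 7.26 for Megf10, 1.24 for Chrdl1, 0.633 for Thbs2 and 0.226 for Thbs1. Gpc4 went from rank 7 to rank 5 in the order of the means, Thbs4 and Megf10 each stood a place later, and the other members kept their ranks. The Cx43KO library ranges of Gpc4 (6.85 to 24.1), Thbs4 (3.26 to 10.5) and Megf10 (4.15 to 9.98) overlapped. The highest Gpc4 value was that of Cx43KO replicate 3.

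**Figure D1:**
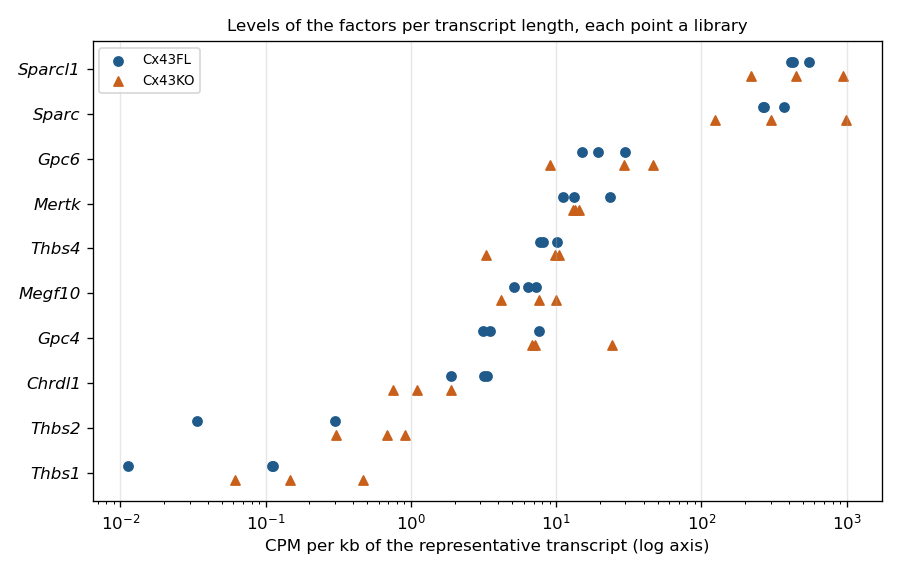
Level of each factor in CPM per kb of transcript on a log axis, by library, for Cx43FL and Cx43KO, with members ordered by their Cx43FL mean. Sparcl1 and Sparc stood at 464 and 302 CPM per kb in Cx43FL and Thbs2 and Thbs1 near 0.1, and the Thbs2 value of 0 in Cx43FL replicate 2 has no place on the log axis.

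Thrombospondins are large secreted matrix glycoproteins. Thbs4, at chr13:92751590-92794818, was the only one of the 3 genes with more than 6 CPM in any library. It had 24.6, 26.1 and 32.4 CPM in the Cx43FL libraries and 10.4, 33.6 and 31.6 CPM in the Cx43KO libraries. Cx43KO replicate 1 was the lowest of the 6, and the genotypes overlapped. The log2 fold change, Cx43KO minus Cx43FL, was -0.14 (SE 0.51, 95% interval -1.26 to 0.98, edgeR adjusted p = 0.952), and it was 0.23 without that library.

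Thbs2, at chr17:14665500-14694235, was barely counted in Cx43FL, with 3, 0 and 27 counts. In Cx43KO it had 29, 134 and 130 counts. In CPM the values were 0.198, 0 and 1.76 against 1.80, 5.39 and 4.01. Every Cx43KO library was above every Cx43FL library, but the gap between the nearest pair was 0.0418 CPM, less than a single count. The log2 fold change of 2.51 (SE 1.49, 95% interval -0.78 to 5.80) did not pass the test (edgeR adjusted p = 0.636), and the exact 2-sided permutation p was 0.1, the smallest that 3 against 3 libraries allow. Thbs2 was without counts in 1 library, and its fold ranged from 1.92 to 5.15 on the log2 scale when single libraries were left out.

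Thbs1, at chr2:118111876-118127133, had 10, 1 and 10 counts in Cx43FL and 44, 9 and 28 in Cx43KO. The genotypes overlapped, and the log2 fold change of 1.50 had a 95% interval from -1.58 to 4.58 (SE 1.40, edgeR adjusted p = 0.755). Without Cx43KO replicate 1 it was 0.42. An exon of Gm29233 on the opposite strand overlaps 98 bases of the Thbs1 transcript, and since the use of strand in counting is not stated, reads there cannot be assigned to either gene. No other member's transcript had an exon in common with another gene in the annotation.

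The share of Thbs2 relative to Thbs4 within a library, taken per kb, was 0.00435, 0 and 0.0294 in Cx43FL and 0.0936, 0.0870 and 0.0689 in Cx43KO. Thbs4 was the larger of the pair in each library of both genotypes. These ratios restate the Thbs2 counts given above, 3, 0 and 27 in Cx43FL, and are descriptions without a test. The ratio in Cx43KO replicate 1 also reflects its low Thbs4, at 0.376 of the Cx43FL mean.

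Hevin, from Sparcl1 at chr5:104079111-104113733, was the most abundant factor. Its levels were 1148, 1516 and 1180 CPM in Cx43FL and 603, 1236 and 2617 CPM in Cx43KO. The Cx43FL libraries lay between the extremes of Cx43KO, with replicate 1 lowest and replicate 3 highest of all 6. The log2 fold change was 0.21 (SE 0.45, 95% interval -0.77 to 1.20, edgeR adjusted p = 0.903).

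Sparc, at chr11:55394500-55423183, encodes the related protein that opposes hevin at synapses. It had 613, 849 and 623 CPM in Cx43FL and 284, 692 and 2280 CPM in Cx43KO, with the same libraries at the extremes. Its log2 fold change was 0.64 (SE 0.58, 95% interval -0.64 to 1.92, edgeR adjusted p = 0.746). Without Cx43KO replicate 3 the log2 fold changes were -0.51 for Sparc and -0.48 for Sparcl1, so the direction of both rested on that library.

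Within libraries the pair kept close to a fixed proportion in Cx43FL. The ratio of Sparc to Sparcl1 per kb was 0.641, 0.672 and 0.634 in Cx43FL and 0.566, 0.672 and 1.04 in Cx43KO. Cx43KO replicate 3 was the only library in which Sparc was above Sparcl1. Over the 6 libraries the log2 levels of the pair had a Pearson r of 0.991, given as a description since all points share their libraries and scaling.

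The astrocyte markers as a list moved in the same libraries. Relative to the Cx43FL mean, their sum in Cx43KO was 0.466, 0.906 and 1.30, while Sparcl1 was 0.470, 0.964 and 2.04 and Sparc was 0.409, 0.996 and 3.28. In Cx43KO replicate 1 both genes therefore stood close to the marker sum, and in replicate 3 both stood above it. Per 1000 CPM of astrocyte markers, Sparcl1 had 40.6, 55.0 and 37.8 CPM in Cx43FL against 44.6, 47.0 and 69.4 in Cx43KO, and Sparc had 21.7, 30.8 and 19.98 against 21.02, 26.4 and 60.4. On this scale Cx43KO replicate 1 was within the Cx43FL range for both, and replicate 3 stayed above it. Vascular and fibroblast markers were also high in these libraries: relative to the Cx43FL mean, their sums in Cx43KO replicates 1 and 3 were 2.99 and 2.08 for endothelium, 2.79 and 2.43 for mural cells, and 1.93 and 2.71 for fibroblasts. The part of any of these marker sums in the fold changes was not tested.

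**Figure D2:**
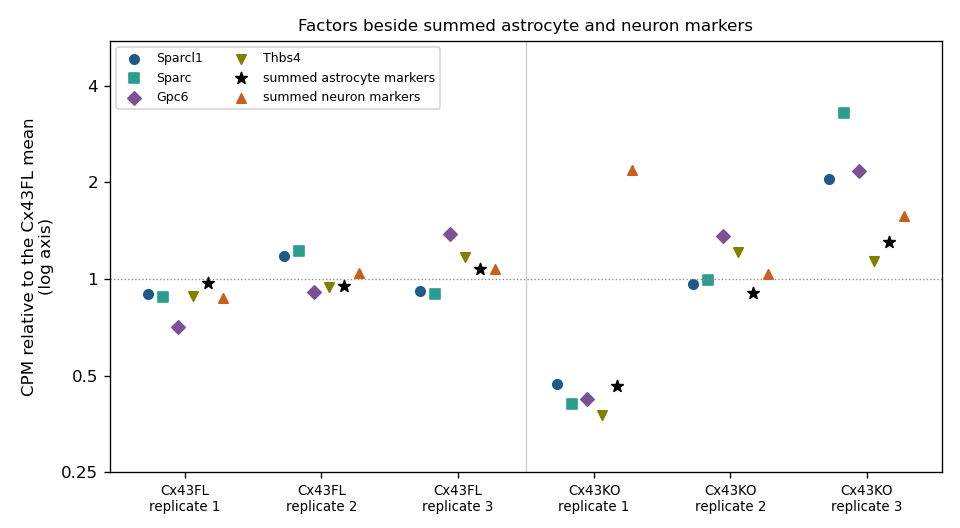
Sparcl1, Sparc, Gpc6, Thbs4 and the summed astrocyte and neuron markers in each library, each relative to its own Cx43FL mean on a log axis. In Cx43KO replicate 1 the astrocyte markers stood at 0.466, the plotted factors at 0.376 to 0.470 and the neuron markers at 2.19. The factors not plotted were higher in that library: Chrdl1 at 0.671, Mertk at 0.891, Megf10 at 1.22, Gpc4 at 1.51, Thbs2 at 2.76 and Thbs1 at 5.95. In Cx43KO replicate 3 the astrocyte markers stood at 1.30, the neuron markers at 1.57 and Sparc at 3.28.

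The codon of Sparc shown above could not be followed with these counts. Sparc-201 and Sparc-202 had equal counts in 5 libraries, and in Cx43KO replicate 3 they had 73838 and 73837, so the same reads were counted on both. Sparcl1 had 1 annotated transcript.

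Glypicans are heparan sulfate proteoglycans held at the cell surface by a lipid anchor and also shed from it. Gpc4, at chrX:52053021-52165252, had 8.30, 9.22 and 20.3 CPM in Cx43FL and 19.1, 18.2 and 63.8 CPM in Cx43KO. A Cx43FL library lay above both lower Cx43KO libraries, and Cx43KO replicate 3 was the highest. The genotype difference on the log2 scale was 1.42 (SE 0.63, 95% interval 0.04 to 2.80), with an unadjusted edgeR p of 0.045 and an adjusted p of 0.592. Gpc4 was the only member with an unadjusted p below 0.05, against 8.34% of all tested genes. The exact 2-sided permutation p was 0.3, and without Cx43KO replicate 3 the log2 fold change was 0.56.

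Gpc6, at chr14:116925315-117976544, had 25.3, 32.4 and 49.4 CPM in Cx43FL and 15.1, 48.7 and 77.7 CPM in Cx43KO. Again Cx43KO replicate 1 was lowest and replicate 3 highest, with the Cx43FL libraries between them. The log2 fold change was 0.40 (SE 0.55, 95% interval -0.80 to 1.61, edgeR adjusted p = 0.837), and it was -0.16 without Cx43KO replicate 3.

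The glypicans differed in their balance within libraries. The ratio of Gpc4 to Gpc6 per kb was 0.206, 0.179 and 0.258 in Cx43FL and 0.795, 0.235 and 0.517 in Cx43KO. The low Cx43KO value, from replicate 2, lay inside the Cx43FL range. Per 1000 CPM of astrocyte markers Gpc4 had 0.293, 0.335 and 0.649 CPM in Cx43FL and 1.41, 0.691 and 1.69 in Cx43KO, without overlap. On that scale 8.41% of tested genes were above in every Cx43KO library. Gpc6, with 0.894, 1.18 and 1.58 against 1.12, 1.85 and 2.06, overlapped. These ratios are descriptions without a test, and the scaling moved the median log2 fold change of all tested genes from 0.07 to 0.47.

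The transcripts of Gpc6 varied between libraries within a genotype. Gpc6-202 had counts equal to 70.1%, 11.7% and 68.7% of those of Gpc6-201 in Cx43FL and to 18.5%, 61.0% and 72.8% in Cx43KO. Cx43FL replicate 2 and Cx43KO replicate 1 were the low libraries, 1 of each genotype. Gpc6-204, the form with the 30 additional bases, had 31, 13 and 104 counts in Cx43FL against 14, 101 and 212 in Cx43KO, and it shares most of its coding bases with the other forms. Every exon of Gpc6-201 lies within Gpc6-202 in the annotation used here although Gpc6-201 had more counts, so how reads were assigned to each cannot be read from these models.

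Chrdl1, at chrX:143285674-143394262, encodes a secreted protein that binds BMPs. It had 7.71, 13.7 and 13.0 CPM in Cx43FL and 7.70, 3.09 and 4.48 CPM in Cx43KO. Every Cx43KO library was below every Cx43FL library, though the nearest pair was 0.00859 CPM apart, less than a single count. The log2 fold change of -1.17 (SE 0.71, 95% interval -2.73 to 0.38) did not pass the test (edgeR adjusted p = 0.636), and the exact 2-sided permutation p was 0.1. It stayed between -1.60 and -0.91 when each library was left out in turn.

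Chrdl1 had 4 annotated coding transcripts, a pair for each coding form, and all had negative log2 fold changes, from -1.05 to -1.20. Chrdl1-203, the form with the longer coding sequence, had 5.47, 8.56 and 10.5 CPM in Cx43FL and 3.48, 5.14 and 2.19 CPM in Cx43KO, with no overlap between the genotypes. Its log2 fold change was -1.20 (SE 0.73, edgeR adjusted p = 0.754 over all transcripts). In the other transcript of each form the genotypes overlapped: Chrdl1-204 had 7.45 CPM in Cx43KO replicate 1 against 7.05 in Cx43FL replicate 1, and Chrdl1-201 had 5.14 in Cx43KO replicate 2 against 5.01 in Cx43FL replicate 1. The counts of Chrdl1-203 were 70.9%, 62.3% and 80.9% of those of Chrdl1-202 in Cx43FL and 45.2%, 166% and 49.0% in Cx43KO, so the balance of the forms differed more among Cx43KO libraries than among Cx43FL libraries. The forms share most of their coding sequence, and how shared reads were assigned is not known. Per 1000 CPM of astrocyte markers, Chrdl1 had 0.273, 0.498 and 0.415 CPM in Cx43FL against 0.569, 0.118 and 0.119 in Cx43KO, and the genotypes overlapped on that scale because of Cx43KO replicate 1.

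Megf10, at chr18:57133090-57297467, encodes a scavenger-type receptor with repeats of the epidermal growth factor kind that binds the complement protein C1q. Its levels were 38.4, 54.4 and 48.3 CPM in Cx43FL and 57.5, 31.1 and 75.02 CPM in Cx43KO. The Cx43KO libraries lay on both sides of the Cx43FL range. On the log2 scale the difference was 0.21 (SE 0.40, 95% interval -0.66 to 1.08, edgeR adjusted p = 0.887). A minor transcript, Megf10-202, had 2.96, 2.12 and 6.25 CPM in Cx43FL and 1.68, 1.53 and 2.01 CPM in Cx43KO, below in every Cx43KO library (log2 fold change -1.10, SE 0.93, edgeR adjusted p = 0.825 over all transcripts), with the nearest pair at 2.01 and 2.12 CPM.

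Mertk, at chr2:128698956-128802894, encodes a receptor tyrosine kinase that binds phosphatidylserine on dying or tagged membranes through the bridging proteins Gas6 and protein S. It had 48.2, 57.0 and 101.3 CPM in Cx43FL and 61.3, 56.1 and 58.0 CPM in Cx43KO. All Cx43KO libraries lay within the Cx43FL range, and Cx43FL replicate 3 was the highest. The log2 fold change was -0.24 (SE 0.36, 95% interval -1.03 to 0.56, edgeR adjusted p = 0.859), and it was 0.15 without Cx43FL replicate 3. On the log2 scale the SD of Mertk was 0.56 in Cx43FL and 0.06 in Cx43KO. The ratio of Megf10 to Mertk per kb was 0.456, 0.546 and 0.273 in Cx43FL against 0.537, 0.318 and 0.741 in Cx43KO, and the genotypes overlapped.

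**Figure D3:**
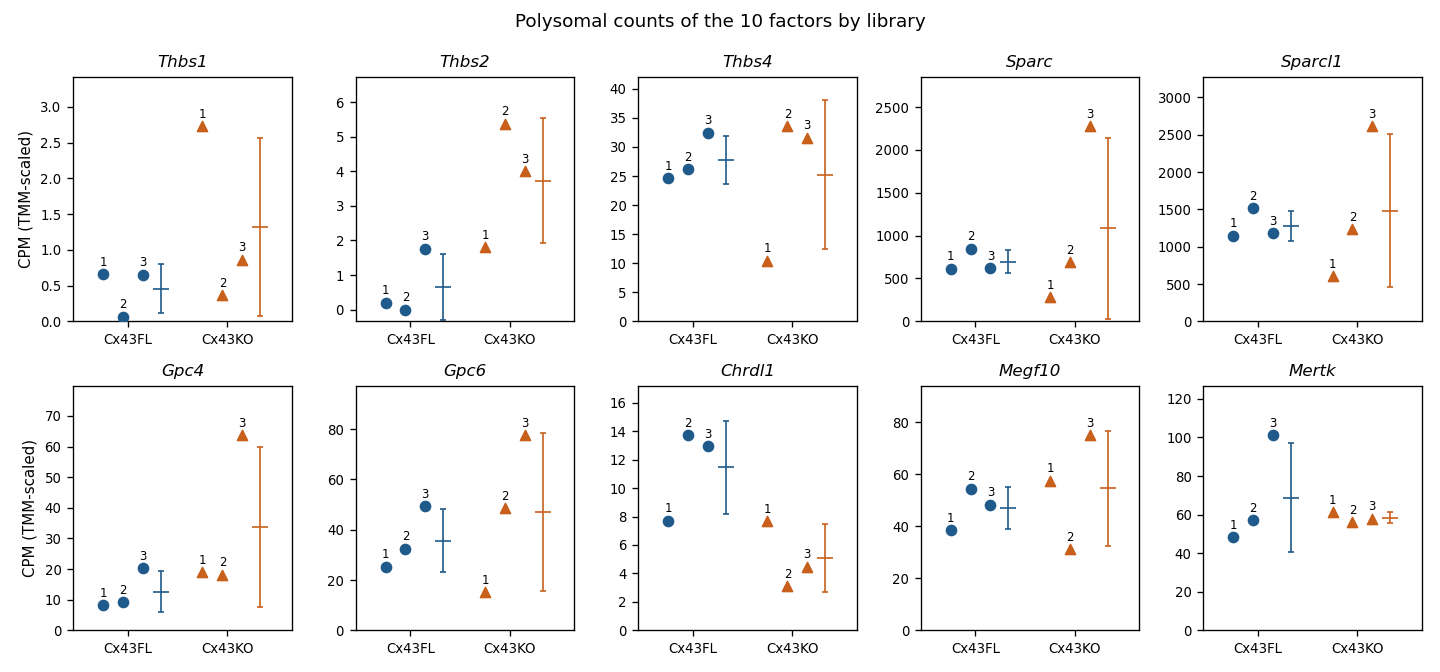
CPM of each of the 10 factors in the 3 Cx43FL and 3 Cx43KO libraries, with the mean and SD of each genotype. Thbs2 and Chrdl1 were the factors without overlap between genotypes, and Cx43KO replicate 3 was the highest library for 5 factors.

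Across the 10 factors, 0 were called by edgeR (adjusted p below 0.05 and a mean normalised count above 50 in the higher genotype), against 1 of 13545 tested genes, or 0.00738%. DESeq2 also called 0, with and without its prior on fold changes. The 1 called gene, Prm1, a sperm chromatin protein named here after its values were seen, had no counts in Cx43FL and 35.4, 26.7 and 21.8 CPM in Cx43KO. Of the factors, 1 was above in every Cx43KO library (8.08% of tested genes), 1 was below in every Cx43KO library (7.45%), and 8 overlapped. The factor that was above, Thbs2, had 3, 0 and 27 counts in Cx43FL and passed the filter on low counts only with its Cx43KO libraries. The fitted log2 fold change was positive for 7 and negative for 3, with a median of 0.31 beside 0.07 for all tested genes. The median of the factors was 0.16 without Cx43FL replicate 1 and 0.50 without Cx43KO replicate 1, and it was -0.20, beside 0.04 for all tested genes, without Cx43KO replicate 3.

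The intervals were wide. They ran from -1.03 to 0.56 for Mertk, the narrowest, to -0.78 to 5.80 for Thbs2, and a log2 fold change of 1 lay inside the interval of 7 factors. The other intervals, of Thbs4 (-1.26 to 0.98), Chrdl1 (-2.73 to 0.38) and Mertk, held a change of the same size in the negative direction. For 8 of the 10 factors the SD of the log2 level was larger in Cx43KO than in Cx43FL, as it was for 69.5% of tested genes. The median SD was 0.46 in Cx43FL and 0.95 in Cx43KO for the factors, and 0.42 and 0.65 for all tested genes. Cx43KO replicate 3 was the highest library for 5 factors and for 18.7% of tested genes, and Cx43KO replicate 1 was the lowest for 4 factors and for 29.9%.

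**Figure D4:**
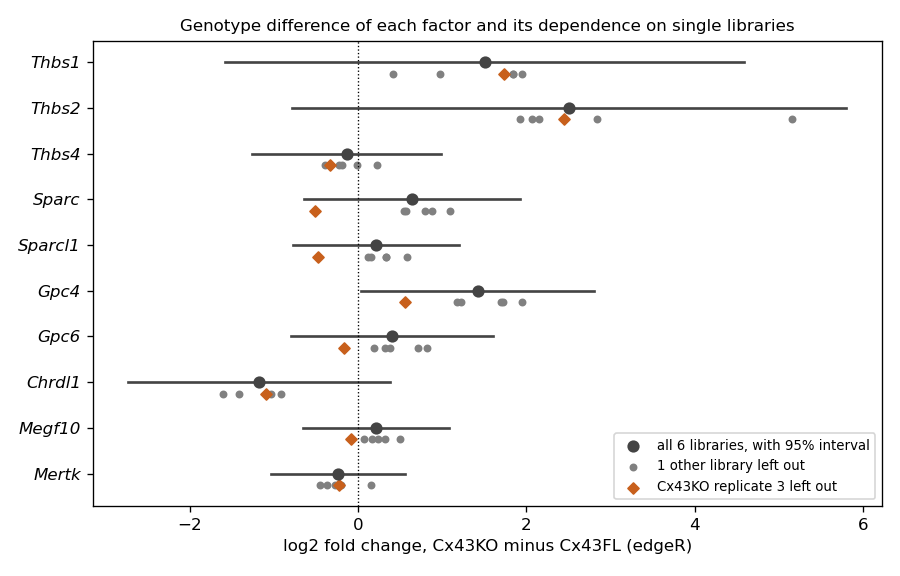
Log2 fold change, Cx43KO minus Cx43FL, of each factor from edgeR with its 95% interval, and the value with each library left out in turn as smaller points, the diamond standing for Cx43KO replicate 3. The intervals of all factors but Gpc4 cross 0, and that of Gpc4, from 0.04 to 2.80, belongs to an adjusted p of 0.592.

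The relatives, partners and machinery of these factors were followed in 9 lists of 83 genes, of which 71 were tested. The lists were chosen with earlier results of these data known, and the study itself reported C1qb and Cacna2d3 as higher in Cx43KO. The shares that follow are therefore descriptions and not independent evidence. None was called by edgeR (lowest adjusted p 0.490), while 14 were higher and 1 was lower at an unadjusted p below 0.05, beside 5.66% and 2.67% of all tested genes. In every Cx43KO library 19 were above and 2 below, beside the 8.08% and 7.45% of all tested genes given before. DESeq2 called 6 of them higher in Cx43KO: Cacna2d1, Cacna2d3, Nptx1, Nptxr, C1qb and C1qc. Over all tested genes DESeq2 called 0.731% higher with its prior and 0.871% without it. The median log2 fold change of the 71 genes was 0.56 beside 0.07 for all tested genes. With single libraries left out, when 73 to 76 of the genes were tested, 9 to 17 were higher and 0 to 4 lower at an unadjusted p below 0.05. The 9 were found without Cx43FL replicate 1 and the 4 without Cx43KO replicate 3, and the median was lowest, at 0.42, without Cx43KO replicate 1.

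The tested receptors and partners of thrombospondins and hevin, many of them neuronal proteins, all had positive fold changes. Of 12 such genes 10 were tested, with log2 fold changes of up to 2.82 and a median of 0.94, and 4 had an unadjusted p below 0.05. Of those not tested, Itgb3 had 15, 3 and 26 counts in Cx43FL and 1, 6 and 1 in Cx43KO. Cd36 had 0, 5 and 10 counts against 0, 18 and 0. The median of the list was 0.43 without Cx43KO replicate 1, when 12 genes were tested. Without Cx43FL replicate 1, 2 of 11 tested genes had an unadjusted p below 0.05. Cacna2d1, the thrombospondin receptor, had 24.2, 20.2 and 20.7 CPM in Cx43FL and 143.5, 39.8 and 69.6 CPM in Cx43KO (log2 fold change 1.96, SE 0.47, edgeR adjusted p = 0.490). Its relative Cacna2d3 had 4.61, 1.99 and 2.67 CPM against 25.4, 6.35 and 34.0 (log2 fold change 2.82, SE 0.76).

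Neuronal markers were highest in Cx43KO replicates 1 and 3, the libraries in which Cacna2d1 and Cacna2d3 were also highest. The summed level of 11 neuronal markers was 2254, 2698 and 2777 CPM in Cx43FL and 5630.2, 2678 and 4048 CPM in Cx43KO. Of the 11, 3 were above in every Cx43KO library, beside 8.08% of all tested genes. None was at 0 in any library, and their median log2 fold change was 0.83. The part of neuronal messages in the partner genes was not tested.

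The glypican list held the other glypicans and the receptors and pentraxins through which glypicans act. Of 12 genes 11 were tested, 4 had positive fold changes at an unadjusted p below 0.05, and the median was 0.74. Without Cx43FL replicate 1 or Cx43FL replicate 3 there were 2 such genes. Nptx1, a neuronal pentraxin that clusters AMPA receptors, had 27.5, 25.01 and 28.9 CPM in Cx43FL and 311.0, 41.1 and 89.3 CPM in Cx43KO (log2 fold change 2.44, SE 0.62). The pentraxin receptor Nptxr had 43.5, 56.2 and 35.8 CPM against 305.6, 67.6 and 120.6 (log2 fold change 1.87, SE 0.50). Both were highest in Cx43KO replicate 1, where the neuronal marker sum was also highest. The sums of microglial, oligodendrocyte, oligodendrocyte precursor, endothelial, mural and choroid plexus markers were highest in that library too. The part of neuronal or other messages in the values of Nptx1 and Nptxr was not tested. Gpc5, the most abundant of the list at 23.7 CPM per kb, had a log2 fold change of 0.20 (SE 0.45).

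In the remaining lists of secreted factors the medians were lower and their place depended on single libraries. Thbs3 was the only tested relative of the thrombospondins (log2 fold change -0.23, SE 0.54, and 0.19 without Cx43FL replicate 1 and 0.05 without Cx43KO replicate 1). The 6 genes related to Sparc had a median of 0.44, with 0 at an unadjusted p below 0.05. That median was -0.58 without Cx43KO replicate 1, 0.15 without Cx43FL replicate 1 and 0.73 without Cx43FL replicate 2. Spock2, the most abundant of those 6, had a log2 fold change of 0.52 (SE 0.37). The chordin-like and BMP list, which also holds the AMPA receptor subunit Gria2, had 7 of 8 genes tested, log2 fold changes from -2.79 to 1.64 and a median of 0.11 that ran from -0.29 without Cx43FL replicate 2 to 0.43 without Cx43FL replicate 3. Gria2 was its only gene at an unadjusted p below 0.05 (log2 fold change 1.17, SE 0.38). Of 11 other astrocyte regulators of synapses 9 were tested, with log2 fold changes from -0.79 to 2.64 and a median of 0.21. Also over 9 genes, the median was -0.09 without Cx43KO replicate 3 and -0.02 without Cx43KO replicate 1. Without each of the other libraries 10 genes were tested, and the median was 0.41 to 0.55, so there the set of genes differed too. Apoe, the lipid carrier, was the most abundant of these at 956 CPM per kb and had a log2 fold change of 0.21 (SE 0.39), and Nrcam, a cell adhesion molecule, had 1.17 (SE 0.37).

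Among 19 engulfment receptors and bridging ligands 14 were tested, of which 6 were above and 2 below in every Cx43KO library, beside 8.08% and 7.45% of all tested genes. At an unadjusted p below 0.05, 2 were higher and 1 was lower, and the median log2 fold change was 0.70. With single libraries left out, when 14 to 16 were tested, 1 to 3 were higher and 0 to 1 lower at that p. Megf11, the nearest relative of Megf10, had 9.29, 15.5 and 10.1 CPM in Cx43FL and 62.9, 20.1 and 29.1 CPM in Cx43KO (log2 fold change 1.68, SE 0.54, edgeR adjusted p = 0.538). Mfge8, a bridging ligand and the most abundant of the list at 120 CPM per kb, was below in every Cx43KO library by a small amount (log2 fold change -0.27, SE 0.26). Stab2, a scavenger receptor, had 22, 37 and 110 counts in Cx43FL and 5, 4 and 29 in Cx43KO (log2 fold change -2.99, SE 1.27), values too low for a firm statement. Gas6, named for its role as a ligand of Mertk after its values were seen, was among the 6 above, with 39.8, 23.7 and 51.3 CPM against 60.4, 57.7 and 53.1 (log2 fold change 0.58, SE 0.38).

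The intracellular machinery of engulfment had a median of 0.16 over 9 genes, which was 0.05 without Cx43KO replicate 3 and 0.10 without Cx43KO replicate 1, and 1 gene, the lipid transporter Abca1, at an unadjusted p below 0.05 (log2 fold change 1.39, SE 0.52). Rac1, the small GTPase that drives phagocytic cup formation, had the highest level of that list at 306 CPM per kb and a log2 fold change of 0.02 (SE 0.30). Of 9 signals that mark or protect targets 7 were tested, and 4 were above in every Cx43KO library, beside 8.08% of all tested genes. An unadjusted p below 0.05 was found for 2. The median of 0.65 was 2.58, over 9 tested genes, without Cx43FL replicate 3. The 2 genes were the complement genes C1qc (log2 fold change 4.19, SE 1.27) and C1qb (log2 fold change 3.21, SE 0.96). C1qc had 14, 14 and 1 counts in Cx43FL and 19, 288 and 730 in Cx43KO, with the nearest pair at 0.929 and 1.18 CPM. It passed the filter on low counts only with its Cx43KO libraries. C1qb had 2.77, 1.79 and 1.17 CPM in Cx43FL and 7.95, 3.90 and 41.3 in Cx43KO. The genotypes overlapped for the genes not tested, C1qa (0, 0 and 4 counts against 1, 88 and 83) and C3 (0, 8 and 5 against 3, 270 and 157). Sirpa, the receptor for the protective signal Cd47, was the most abundant of the list (log2 fold change 0.45, SE 0.27). The 10 microglial markers, the cell type known to produce C1q, summed to 107, 127 and 97.2 CPM in Cx43FL and 178, 154 and 160 CPM in Cx43KO, with a median log2 fold change of 0.62. Among them Tmem119 had no counts in 1 library, Trem2 in 2 and Itgam in 1. The part of microglial messages in the complement values was not tested.

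**Figure D5:**
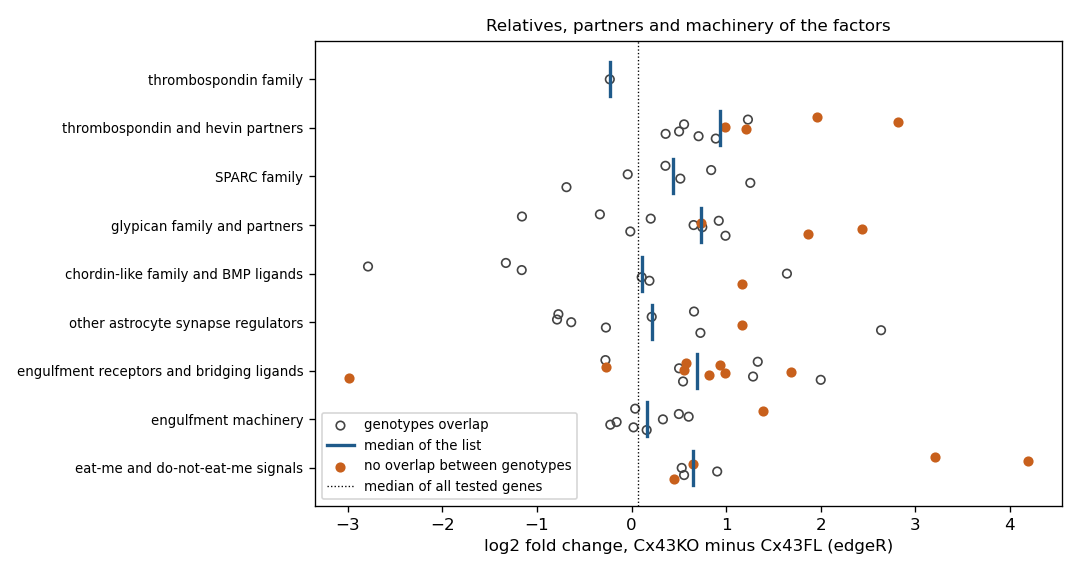
Log2 fold change, Cx43KO minus Cx43FL, of the 71 tested genes in 9 lists of relatives, partners and machinery, with the median of each list as a bar and the median of all tested genes as a dotted line. Filled points are genes without overlap between the genotypes, and the partner, glypican and engulfment receptor lists have medians of 0.94, 0.74 and 0.70.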

How the data were processed

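Polysomal RNA from hippocampal astrocytes was sequenced in 6 libraries, 3 per genotype. The authors deposited counts, whole numbers of reads per Ensembl transcript and not normalised, made with STAR on mm10 and HTSeq 0.5.3 after removal of reads that map to several places. Per the labels, bcl2fastq 1.8.4 was also used. How HTSeq used strand is not given in the sources used here. Transcripts were matched by identifier to GENCODE M21 (GRCm38), which matched 73157 of 75466. The others held 1.605% to 1.778% of counts in a library and were not used. For each gene, the transcript with most counts over the 6 libraries was taken, and totals over all transcripts ran from 33423491 to 77030398, since a read can be counted on several transcripts.

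Genotypes were compared with edgeR 4.0.16 (R 4.3.3) on counts: TMM factors, filterByExpr by genotype, the quasi-likelihood F test on genotype alone, and Benjamini-Hochberg adjustment over the 13545 tested genes. A gene was called at an adjusted p below 0.05 with a mean normalised count above 50 in the higher genotype. The SE is the fold change over the root of F, and 95% intervals use the t distribution with the fit's degrees of freedom. Single genes were also tested by an exact 2-sided permutation of log2(CPM + 0.5), which cannot go below p = 0.1 with 3 against 3. The code was tested on simulated data. The members and the lists of partners and markers were chosen with earlier results of these data known. Named genes were all members, the most abundant tested gene of each list, up to 2 per list with the largest fold change among those without overlap, called genes, Gja1, and for Sparcl1 and Mertk the 3 most similar genes. The values of 1 gene that this rule names are not reported here. Alternatives were other scalings, filters and transcript summaries, DESeq2 1.42.0, a replicate block and leaving out each library.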

Additional observations from a re-analysis of the deposited data

How the results depend on the processing

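No factor was called under any alternative. Of 158 fold changes of factors under an alternative, 149 kept their direction and 9 reversed, and the lowest adjusted p was 0.323, for Gpc4 with DESeq2 without its prior. When single libraries were dropped, log2 fold changes ran from -0.51 to 1.09 for Sparc, -0.48 to 0.58 for Sparcl1, -0.16 to 0.82 for Gpc6 and -0.087 to 0.49 for Megf10, each lowest without Cx43KO replicate 3. It ran from -0.45 to 0.15 for Mertk, highest without Cx43FL replicate 3, and from -0.40 to 0.23 for Thbs4, highest without Cx43KO replicate 1. Scaling to the summed astrocyte markers, chosen after seeing the data, moved the median of all tested genes from 0.07 to 0.47, and on that scale Mertk was 0.22 and Thbs4 0.015, both below that median. The genotypes share replicate numbers, and same-numbered libraries had correlations of -0.0071 to -0.0389 in their deviations. The labels do not say whether the numbers pair libraries, and these correlations cannot settle it. With the replicate block Sparcl1 was -0.036, Gpc4 1.28 and Thbs2 3.53, no factor was called, and 2 genes in all were called. Over all genes, 1 was called higher and 0 lower. The count higher was 0 with at least 10 counts in every library, with summed transcripts and with marker scaling, and 0 to 11 with a library left out, 11 without Cx43KO replicate 1. DESeq2 called 99 higher and 14 lower with its prior and 118 higher and 19 lower without it. The causes were not tested. With at least 10 counts in every library, Thbs1 and Thbs2 were not tested. The level of Gpc6 in Cx43FL was 10.2 CPM per kb with the length of Gpc6-202 in place of 21.4. Precision was limited by 3 libraries a genotype and, for Thbs1 and Thbs2, by counts under 150.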

Other observations

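Over the 6 libraries the genes whose log2 levels ran closest to those of Sparcl1, among 9795 genes with a mean of at least 10 CPM, were Ugdh (Pearson r 0.994), Sparc (0.991) and Pmp22 (0.988). For Mertk they were Fubp1 (0.963), Sh3gl1 (0.946) and Adar (0.927). Among pairs of factors other than Sparc with Sparcl1, the highest values were 0.870 for Thbs4 with Gpc6 and 0.867 for Sparcl1 with Gpc6. These correlations share their 6 libraries and scaling and are given as descriptions.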
